A study of Mus musculus with 6 samples.

Results

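Foxa1 is a forkhead transcription factor of the kind called a pioneer factor: it can bind its DNA sites in packed chromatin and helps other factors reach them. In prostate epithelium it works with the androgen receptor at genes of luminal secretory cells. Its close relative Foxa2 is known from endoderm development and, in the prostate, from neuroendocrine cells and neuroendocrine tumours. The sites held by Foxa1 in mouse prostate tumor cells were compared between 2 weeks and 6 months of tamoxifen treatment, with chromatin immunoprecipitation and sequencing (ChIP-seq). All deposited Foxa1 peaks on chromosomes 1 to 19 were taken, 53460 at 2 weeks and 35630 at 6 months, out of 125055 peaks in the 4 lists of the series.

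Both groups were C57BL/6 animals, labelled as prostate tumor cells, given tamoxifen for 2 weeks or for 6 months and precipitated with an antibody to FOXA1. Per the labels' protocols 3 prostates were dissected. Their pooling into libraries, the animals' genotype and age, and the promoter behind any tamoxifen-dependent recombinase were details not given in the sources used here. There was 1 library per group, so no difference had a replicate check and no test between groups was made. Read depth is unknown from peak lists, and a deeper or cleaner library yields more peaks. In bulk tissue, fewer cells of a type and weaker binding per cell cannot be told apart. Binding near a gene does not measure its expression, and the gene nearest to a site need not be the one it acts on. Intervals in brackets are exact Clopper-Pearson 95% intervals unless another kind is named, and they cover counting error only.

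Peaks closer than 1 kb were joined, which left 42864 regions at 2 weeks and 22654 at 6 months. A region that shared at least 1 bp with a region of the other time was called kept, a 2-week region without such a partner lost, and a 6-month region without one new. The promoters below are selected examples of these classes at the level of the sequence. They are the 2 strongest kept, lost and new promoters that held a forkhead motif in the 250 bases before the gene start, each lying whole within a deposited Foxa1 peak. Letters are from RefSeq (GRCm38.p6, the coordinates of mm10), read 5′ to 3′ on the gene's strand and ending at the base before the start. Capitals mark the forkhead motif TGTTTAC or one of its 3 variants spelled out with the motif shares further on, on either strand. The kept promoters are those of Pde1c (chr6:56362811-56363060, minus strand), a calcium-dependent phosphodiesterase, and Hbp1 (chr12:31950246-31950495, minus strand), a transcriptional repressor. The lost ones belong to Smgc (chr15:91838078-91838327, plus strand), a secreted salivary-type protein, and Olfr750 (chr14:51071443-51071692, minus strand), an olfactory receptor. The new ones belong to Ddc (chr11:11890409-11890658, minus strand), the decarboxylase that makes dopamine and serotonin, and Myt1 (chr2:181766779-181767028, plus strand), a zinc finger factor of neural differentiation.
Pde1c: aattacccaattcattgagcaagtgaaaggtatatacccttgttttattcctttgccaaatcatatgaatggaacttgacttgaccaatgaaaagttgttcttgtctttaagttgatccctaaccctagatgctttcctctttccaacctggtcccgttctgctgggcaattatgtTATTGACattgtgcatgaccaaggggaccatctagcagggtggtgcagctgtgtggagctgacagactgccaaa
Hbp1: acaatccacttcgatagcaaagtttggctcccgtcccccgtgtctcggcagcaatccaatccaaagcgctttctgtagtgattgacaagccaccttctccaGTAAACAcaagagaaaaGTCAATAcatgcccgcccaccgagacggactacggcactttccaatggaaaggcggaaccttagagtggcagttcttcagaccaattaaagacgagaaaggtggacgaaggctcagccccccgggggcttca
Smgc: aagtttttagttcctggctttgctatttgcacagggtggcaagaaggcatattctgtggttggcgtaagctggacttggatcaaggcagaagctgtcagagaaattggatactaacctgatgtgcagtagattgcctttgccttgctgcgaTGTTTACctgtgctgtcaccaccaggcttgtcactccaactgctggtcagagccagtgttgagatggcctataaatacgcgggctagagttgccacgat
Olfr750: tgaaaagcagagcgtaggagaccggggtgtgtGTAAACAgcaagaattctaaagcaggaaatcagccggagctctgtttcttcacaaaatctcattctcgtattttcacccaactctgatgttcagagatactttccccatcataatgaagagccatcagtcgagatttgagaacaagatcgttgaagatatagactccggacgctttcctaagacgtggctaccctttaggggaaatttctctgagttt
Ddc: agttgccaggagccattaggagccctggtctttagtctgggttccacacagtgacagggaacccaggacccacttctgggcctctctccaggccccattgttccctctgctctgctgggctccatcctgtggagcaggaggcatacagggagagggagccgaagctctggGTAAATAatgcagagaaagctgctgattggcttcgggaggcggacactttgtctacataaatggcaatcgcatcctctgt
Myt1: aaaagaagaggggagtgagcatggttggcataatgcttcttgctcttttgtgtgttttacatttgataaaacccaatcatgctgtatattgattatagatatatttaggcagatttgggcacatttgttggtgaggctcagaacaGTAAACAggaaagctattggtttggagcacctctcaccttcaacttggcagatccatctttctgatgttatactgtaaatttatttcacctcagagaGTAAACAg

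These promoters were picked for strength, so the high values of their regions follow from the choice. The Pde1c region had a −log10 q of 44.2 at 2 weeks and 54.5 at 6 months, and the Hbp1 region 40.8 and 35.9. The Smgc region reached 84.2 and the Olfr750 region 57.0 at 2 weeks. Ddc and Myt1 reached 30.8 and 28.9 at 6 months. The −log10 q and fold enrichment are the authors' values of the strongest peak in a region and rank regions only within their own list. Few promoters were covered in this way: of 20085 promoter windows of 300 bp, from 250 bases before to 50 after a start, 160 lay in a kept region, 104 in a lost one and 33 in a new one. A window took the class of the joined region around it, so a kept window need not lie in a peak at both times. The kept window of Txnip had a peak value at 2 weeks only, that of Hdac11 at 6 months only. The promoter table used here holds no start sites of chromosome 18.

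Forkhead motifs were common in all 3 classes of covered promoter. At least 1 of the 4 motifs, on either strand, was found in 8.53% of all 20085 windows, against 44.4% of kept windows (36.5 to 52.4%), 46.2% of lost windows (36.3 to 56.2%) and 30.3% of new windows (15.6 to 48.7%). Alone, the motif TGTTTAC was in 3.04% of all windows. The variant spelled TATTTAC was in 2.64% of them, while the variant spelled TGTTGAC was in 2.09% and the one spelled TATTGAC in 1.22%. A window can hold several of them. Base composition differed between the classes: the median window held 11 CpG when kept, 4 when lost and 4 when new, against 14 in all windows. Among windows with under 10 CpG the motif share was 13.3% in all, 31.6% in kept, 44.2% in lost and 25.9% in new ones. Among windows with 10 or more CpG it was 5.08% in all, 56.0% in kept, 55.6% in lost (10 of 18) and 50% in new ones (3 of 6). Genes with a new promoter region included Foxa2, the neuronal RNA-binding protein genes Elavl4 and Celf3, and Pcsk1, a processing enzyme of peptide hormones. Genes with a lost one included Il33, Il1rn and Il1r1 of interleukin-1 family signalling, Spdef, an ETS factor of secretory epithelia, and Egf. These further promoter genes were chosen after their values were seen, from 32 genes with a new and 98 with a lost promoter region. Rag2, Klhl41 and Olfr1402 were among the new ones too. Among the gene lists below, neuroendocrine markers (18 windows), neural adhesion (55) and axon guidance (74) had no window in a new region. Vesicle genes had 1 of 51 and potassium channels 1 of 93. Interleukin genes had 3 of 76 in a lost region and 1 in a kept one.

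Fewer than 1 in 4 regions of 2 weeks were still listed at 6 months. Of 42864 regions, 10002 were kept, 23.3% (22.9 to 23.7%), and 32862 were lost. Counted from the other side, 9826 of 22654 regions at 6 months were kept, 43.4% (42.7 to 44.0%), and 12828 were new. Kept regions were wide, with a median of 1024 bp in the 2-week list and 985 bp in the 6-month list, while lost regions had a median of 526 bp and new regions 449 bp. A wide region meets a rule of 1 bp more easily, so this order can follow in part from how the classes are made. Kept regions were also the stronger ones in each list. The median −log10 q was 12.7 for kept against 6.46 for lost regions at 2 weeks, and 6.63 for kept against 4.50 for new regions at 6 months. Joining changed the 6-month list more, since 34.4% of its regions combined 2 or more peaks against 18.6% at 2 weeks.

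**Figure D1:**
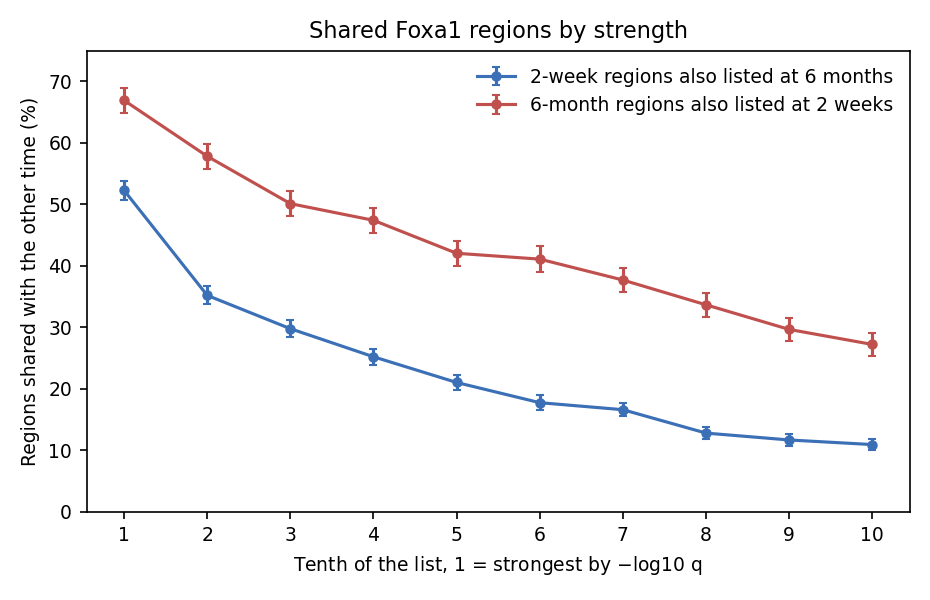
Percentage of joined Foxa1 regions shared with the other time (vertical axis) by 10% step of the list ranked by −log10 q (horizontal axis, 1 is the strongest), for 42864 regions at 2 weeks and 22654 at 6 months; bars are exact 95% intervals. The shared percentage falls from 52.3% to 10.9% at 2 weeks and from 66.9% to 27.2% at 6 months.

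The strongest 10% of the 2-week regions were kept in 52.3% of cases (50.8 to 53.8%) and the weakest 10% in 10.9%. At 6 months these shares were 66.9% (65.0 to 68.9%) and 27.2%. When instead only the same number of strongest regions was taken from each list, matches were rarer at the top: 18.2% of the 500 strongest regions at 2 weeks met one of the 500 strongest at 6 months, 21.3% of the 2000 strongest, 28.7% of the 10000 strongest and 32.0% of the 22654 strongest. The strongest regions of one list were thus mostly not among the strongest of the other. A few ranked near the top of both. One lay inside Stat4, a cytokine-signalling transcription factor, at rank 17 of the 2-week list (chr1:51994911-51998450) and rank 1 of the 6-month list (chr1:51992306-51998986). Another lay 15.4 kb from the end of Galnt18, a glycosyltransferase of mucin-type sugar chains, at ranks 10 and 5. A further one lay 35.9 kb from Chd6, a chromatin remodeller, at rank 6 in both lists.

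The classes were also set beside the Foxa2 list of 6 months. Kept regions are by definition listed for Foxa1 at 6 months and lost ones are not, and 75.2% of all 6-month Foxa1 regions overlapped a Foxa2 region, so the order of kept over lost below follows in part from how the classes are made. A joined Foxa2 region of 6 months overlapped 85.3% of kept 2-week regions (84.6 to 86.0%) and 5.22% of lost ones (4.98 to 5.46%), and it overlapped 68.4% of new regions (67.5 to 69.2%). Among 6-month regions this share depended on strength: all regions of the strongest 10% overlapped a Foxa2 region, 100%, against 33.1% of the weakest 10%. The 5 strongest lost regions, in Ccdc34, Rasgef1a and Mllt3 and near Nfil3 and Akr1d1, had no Foxa2 region. The 5 strongest new ones, in Tcf7l1 and Ctnnd2, near Aopep and at a pair of sites without a gene within 100 kb, all had one. Sharing of chromatin between the Foxa1 and Foxa2 libraries of 6 months was a detail not given in the sources used here.

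New regions lay farther from gene starts than kept or lost ones. The median distance from the summit to the nearest start was 75.7 kb for new regions, 43.4 kb for lost regions and 43.1 kb for kept regions of the 2-week list. Of the new regions 59.6% (58.7 to 60.5%) lay beyond 50 kb, against 46.6% (46.1 to 47.2%) of the lost and 46.4% of the kept. No protein-coding gene lay within 100 kb of 18.3% of new regions, against 12.7% of lost and 10.4% of kept regions. Kept regions were the ones most often at promoters, with 5.18% within 1 kb of a start (4.75 to 5.64%) against 2.71% of lost and 2.28% of new regions. The share inside gene bodies differed little, at 54.4% for new, 54.4% for lost and 58.2% for kept regions.

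**Figure D2:**
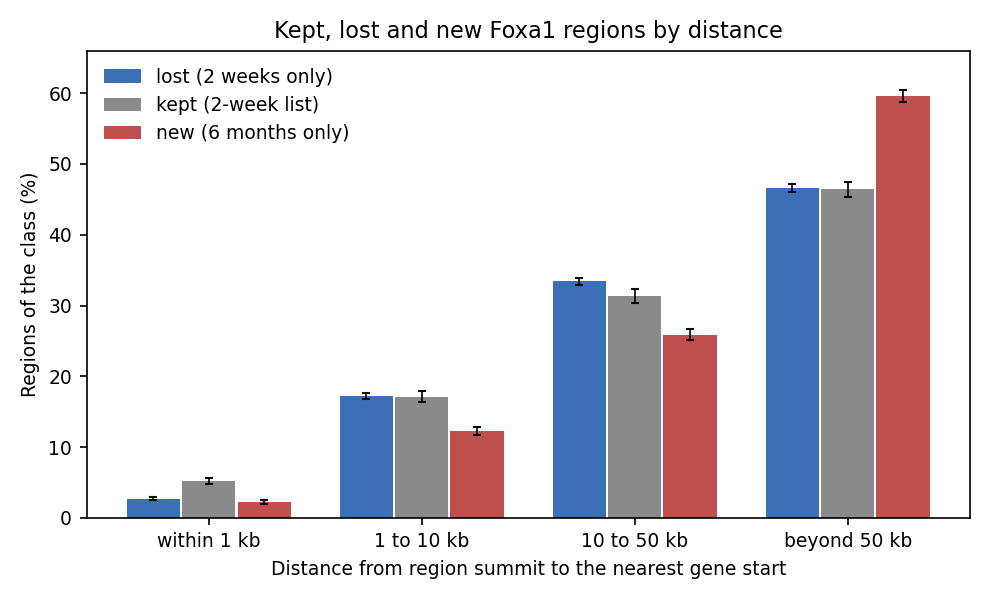
Percentage of lost, kept and new Foxa1 regions (vertical axis) by distance from the summit to the nearest gene start (horizontal axis); kept regions are those of the 2-week list and bars are exact 95% intervals. New regions are the class with most regions beyond 50 kb, 59.6%, and kept regions the class with most within 1 kb, 5.18%.

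Every chromosome held kept, lost and new regions in similar proportions. The kept share of 2-week regions ran from 20.8% on chromosome 19 to 25.2% on chromosome 10. Chromosome 19 also had the lowest ratio of its share of regions at 6 months to that at 2 weeks, 0.84, and chromosome 12 the highest, 1.08, among the 22654 strongest regions.

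To compare genes, each region was given to all protein-coding genes whose bodies held its summit. A region outside gene bodies was given to the gene whose end lay closest, up to 100 kb away. Since the lists differ in length, each gene was counted in 2 views. The equal-length view takes the 22654 strongest regions of each list, which is the whole 6-month list and reaches its weak regions. The equal-share view takes the strongest 50% of each list, 21432 and 11327 regions, which leaves 6 months with the shorter list and so favours a deficit there. A gene was called only when its difference reached 3 regions in both views. Of 20665 protein-coding genes, 199 held at least 3 more regions at 6 months, 0.963% of all, and 834 held at least 3 fewer, 4.04%. With a threshold of any difference in both views, 8.35% held more and 21.3% held fewer. These shares are over all genes, including those without any region. In the equal-length view 7934 genes had a region at 2 weeks, and 4397 of them held fewer in both views. At 6 months 7235 genes had one, and 1725 of them held more. In the full lists 10546 genes had a region at 2 weeks and 7235 at 6 months. Both times marked 6164 genes, yet 1364 of these shared no region, and 3445 genes had lost and new regions together.

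**Figure D3:**
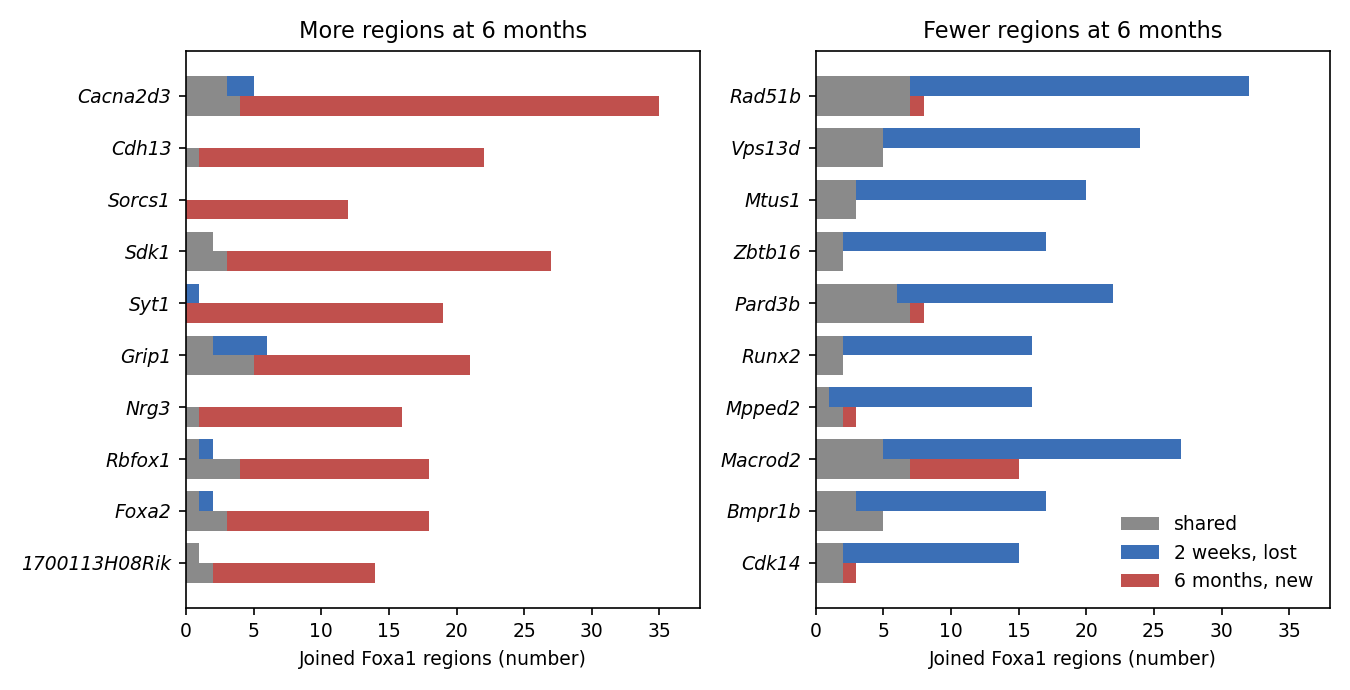
Joined Foxa1 regions (horizontal axis, number in the equal-length view) of the 10 genes with the largest excess and the 10 with the largest deficit at 6 months; the upper bar of a gene is 2 weeks, the lower 6 months, grey the regions shared with the other time. Of the 35 regions of Cacna2d3 at 6 months 31 are new, the 2 regions of Zbtb16 at 6 months are both shared, and Macrod2 has 7 shared and 8 new.

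Of the 10 genes with the largest excess at 6 months, 8 were longer than 500 kb, the length class in which such an excess is most frequent, as described further on. Cacna2d3, an auxiliary subunit of voltage-gated calcium channels (chromosome 14, 28904943 to 29722775), held 5 regions at 2 weeks and 35 at 6 months in the equal-length view, and 5 and 19 in the equal-share view. Of its 35 regions 31 were new. Cdh13, which encodes a cadherin anchored to the membrane by lipid, went from 0 to 22 (0 to 14 at equal share), and Sorcs1, a sorting receptor of neurons, from 0 to 12 in both views. No 2-week region of any strength was assigned to Sorcs1, while 1 weaker one was assigned to Cdh13. Sdk1, a synaptic adhesion molecule, held 2 and 27 regions, and Syt1, the calcium sensor of synaptic vesicle release, 1 and 19. In the same view the glutamate receptor scaffold gene Grip1 held 6 and 21, the neuregulin gene Nrg3 0 and 16, and the neuronal splicing factor gene Rbfox1 2 and 18. Foxa2 was the only transcription factor gene among the 10. It is a short gene of 4.09 kb (chromosome 2, 148042877 to 148046969). It held 2 and 18 regions in the equal-length view, or 2 and 10 at equal share. With peaks under 5 kb apart joined it held 2 and 5, and 2 and 4 at equal share, which ends the gene's call. Of the 18 Foxa2 regions 15 were new, and most lay outside the gene. With only gene bodies and 5 kb beyond counted, Foxa2 held 0 and 2. The remaining gene, 1700113H08Rik, held 1 and 14. Foxa1 itself had 3 and 4 regions in the equal-length view and 3 and 3 in the equal-share view, all of them kept.

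The 10 genes with the largest deficit were also long, from Mtus1 at 143 kb to Macrod2 at 1998 kb. Deficits of at least 3 regions are more frequent in long genes, as described further on. The DNA repair list, which holds Rad51b, was not called (0.810 and 0.880). Rad51b, a homologous recombination gene (chromosome 12, 79297282 to 79848260), held 32 regions at 2 weeks and 8 at 6 months in the equal-length view, and 30 and 5 in the equal-share view. Zbtb16, a zinc finger factor known as an androgen-responsive gene in prostate, held 17 and 2 in both views. Its 2 regions of 6 months were kept ones. Runx2, the transcription factor of bone-forming cells, held 16 and 2, and Bmpr1b, a receptor of bone morphogenetic proteins, 17 and 5. The polarity gene Pard3b held 22 and 8, the lipid transfer gene Vps13d 24 and 5, and the microtubule-associated Mtus1 20 and 3. Mpped2 held 16 and 3, Cdk14, a cyclin-dependent kinase, 15 and 3, and Macrod2, an enzyme that removes ADP-ribose, 27 and 15 (26 and 6 at equal share). Of Macrod2's 15 regions at 6 months 8 were new, while Vps13d, Mtus1, Zbtb16, Runx2 and Bmpr1b had no new region at all.

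Long genes took a larger part of the 6-month list. Genes over 500 kb held 6.66% of gene-assigned regions at 2 weeks and 10.4% at 6 months in the equal-length view, a ratio of 1.56 (1.65 at equal share). For genes of 200 to 500 kb the ratio was 1.26, and for genes of 10 to 50 kb it was 0.84. A difference of at least 3 regions is also easier to reach in a long gene. Of the 216 genes over 500 kb, 24.1% held at least 3 more regions and 16.7% at least 3 fewer, so both directions were frequent there. For genes of at least 200 kb, 945 in number, 30.1% held more in both views and 31.6% fewer.

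**Figure D4:**
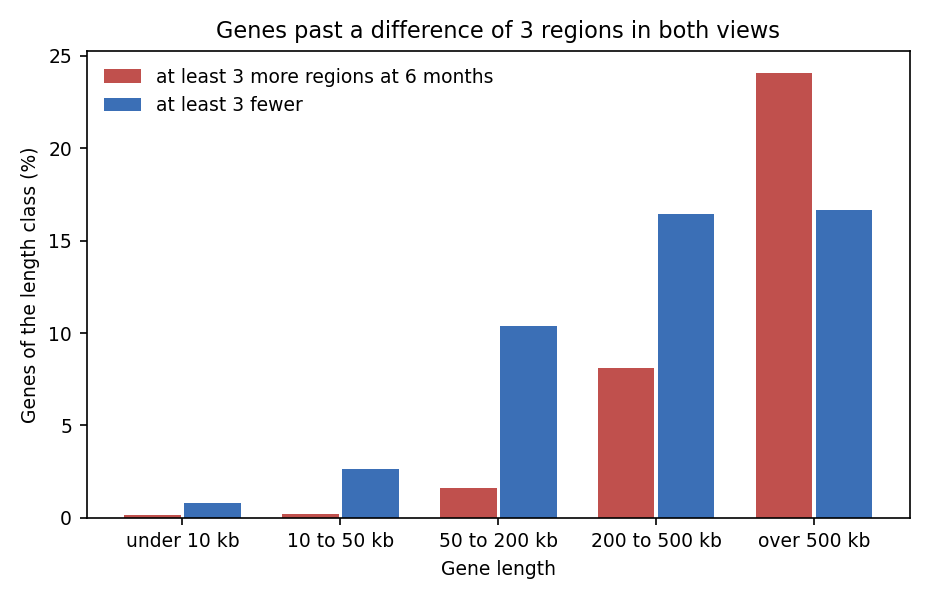
Percentage of protein-coding genes (vertical axis) with at least 3 more or at least 3 fewer Foxa1 regions at 6 months in both views, by gene length (horizontal axis). Over 500 kb 24.1% of genes hold at least 3 more and 16.7% at least 3 fewer, and in the shorter classes fewer regions are the more frequent outcome.

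Gene classes and pathways were compared by share: the percentage of all gene-assigned regions that fell to a list at 6 months, divided by that at 2 weeks. A list was called when this ratio was at least 1.5, or at most 0.667, in both views with at least 20 regions in each. Of 73 lists, 13 were called higher at 6 months, 17.8%, and 6 lower, 8.22%. Ion channels, synaptic genes, adhesion molecules of neurons and neuroendocrine markers made up most of the higher lists. The 6 lower lists were TNF, NF-kappa B, chemokine, cytochrome P450, apoptosis and secretory pathway genes. The median difference per gene was 0 in both views over all genes, and it was 1 and −1 over genes of at least 200 kb.

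**Figure D5:**
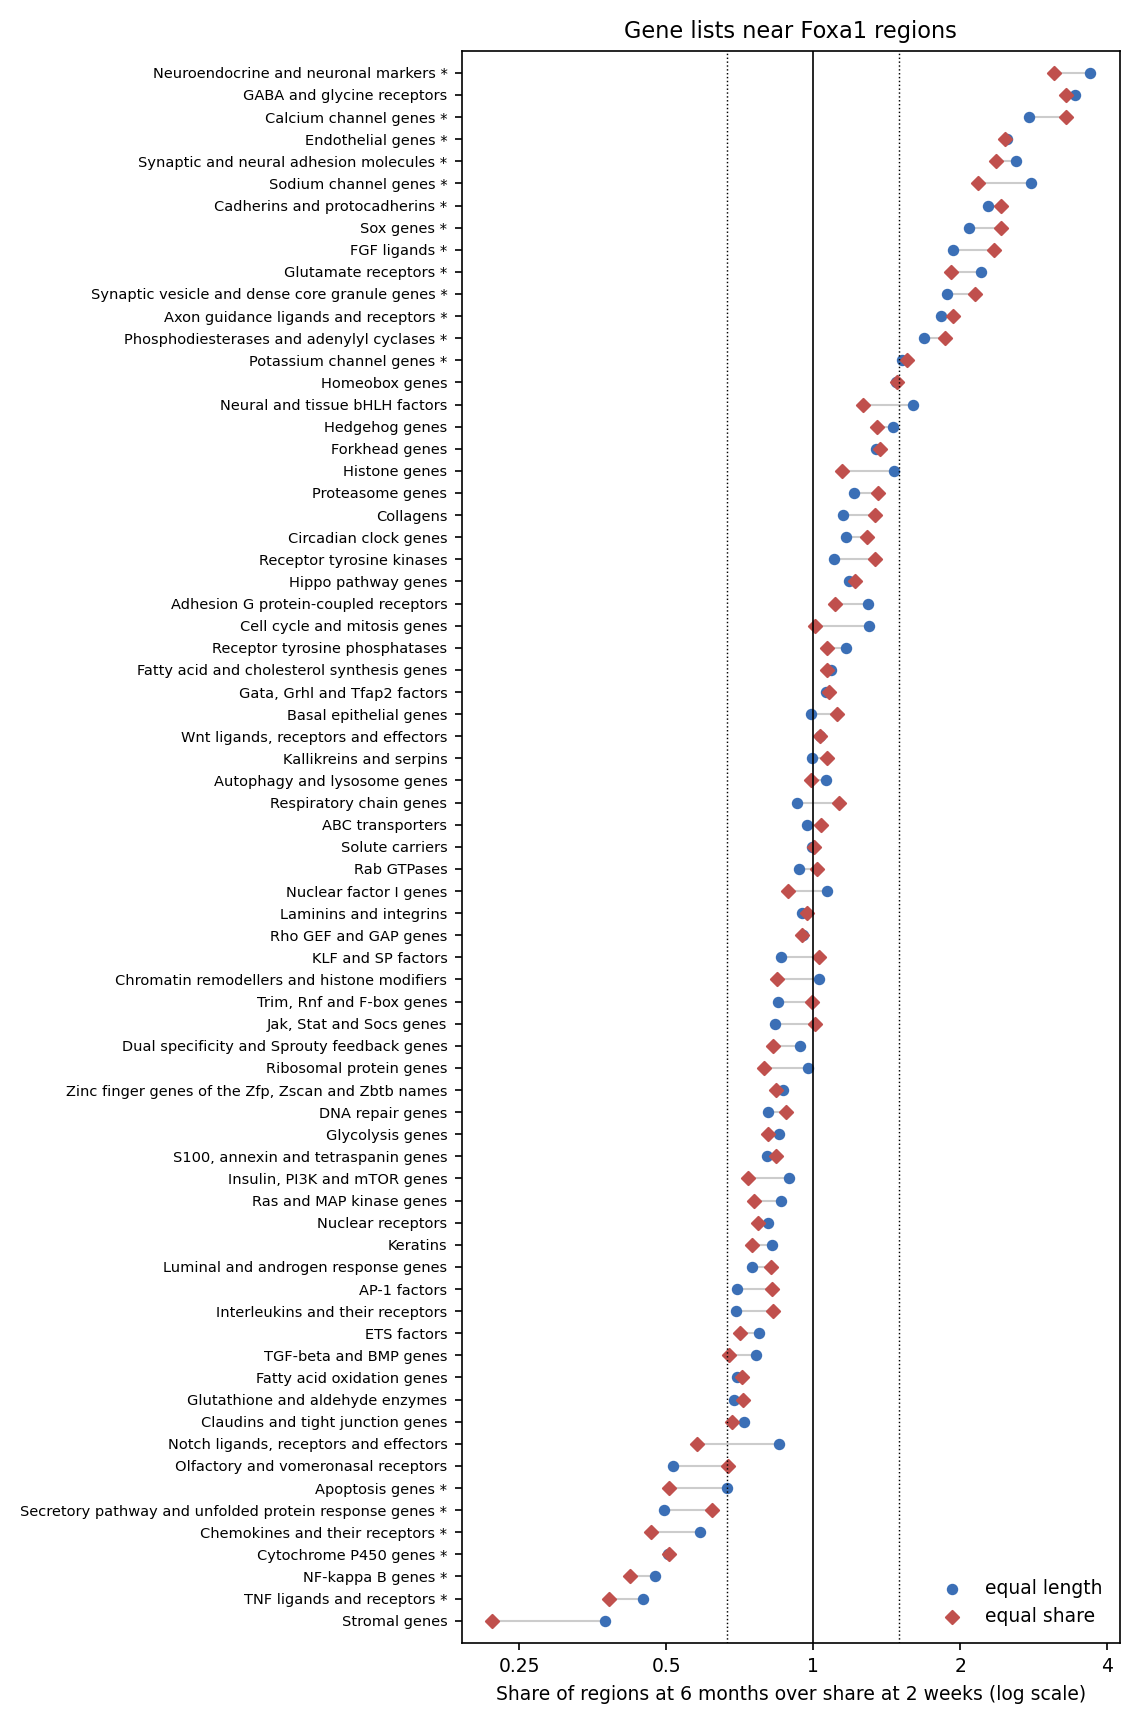
Ratio of a list's share of Foxa1 regions at 6 months to that at 2 weeks (horizontal axis, log scale) for the lists with regions at both times in both views; circles are the equal-length view, diamonds the equal-share view, dotted lines the thresholds and stars called lists. Neuroendocrine and neuronal markers lie at 3.68 and 3.11, and TNF genes at 0.449 and 0.382.

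Neuroendocrine and neuronal markers had the largest equal-length ratio among the called lists. The 23 genes held 21 regions at 2 weeks and 75 at 6 months in the equal-length view, a ratio of 3.68 (2.27 to 5.98, a 95% counting interval of the ratio that treats regions as independent), and 3.11 in the equal-share view. The equal-length ratio was 2.22 with peaks under 5 kb apart joined, and over 9 settings and both views ratios ran from 2.22 to 5.81. More regions were held by 9 members, 39.1%, and fewer by 3, 13.0%, against 8.35% and 21.3% of all genes. In the equal-length view 12 members had a region at 2 weeks and 17 at 6 months. Snap25, a protein of the vesicle fusion machinery, held 1 and 9, and so did Prox1, a homeobox factor. Chga, whose product chromogranin A is the standard marker of dense core granules, held 0 and 5 (0 and 2 at equal share). All 5 of these Chga regions were new, and no 2-week region of any strength was assigned to the gene. The proneural factor Neurod1 went the other way with 1 and 0, as did Scg3 and Calca.

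Synaptic and neural adhesion molecules, 53 genes, held 157 and 395 regions, ratios of 2.60 (2.16 to 3.12) and 2.37. These genes are long, with a median of 332 kb, and genes of like length had ratios of 1.45 and 1.51, so relative to those the ratios were 1.79 and 1.58. Of the members 43.4% held more regions, against 30.1% of all genes of at least 200 kb. Nrxn3, which codes for a neurexin of the presynaptic membrane, held 3 and 24 regions, and Cadm2 held 0 and 12. Of this list's 6-month regions 78.2% were new, against 56.6% of all 6-month regions. For genes of at least 200 kb outside the neural lists grouped further on it was 60.5%. A high new share follows in part from the rise by which the list was called, so it is no further support. Not every member followed: Tenm3 held 9 and 2, Cntn1 5 and 0 and Cntn3 5 and 1.

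Vesicle and granule genes, 53 in number, held 93 and 169 regions (ratios 1.87 and 2.14). More were held by 22 members, 41.5%, and fewer by 9, 17.0%, against 8.35% and 21.3% of all genes. Beside Syt1 the higher members were led by Cplx2, a complexin of vesicle fusion, with 0 and 9, and Unc13c with 0 and 5. Stxbp6 held 11 at 2 weeks and 1 at 6 months, the largest deficit in the list. Cadherins and protocadherins had 63 and 139 regions (2.28 and 2.42), with Pcdh15 at 0 and 11, Cdh23 at 0 and 7 and Cdh20 at 0 and 12 (0 and 2 at equal share). The clustered protocadherins overlap one another and share regions, so their member count repeats regions, whereas the ratio counts each region once. Cdh1, the E-cadherin of epithelia, held 7 and 5.

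Among ion channels the calcium channel genes had ratios of 2.76 and 3.30, with 37 regions at 2 weeks and 99 at 6 months over 25 genes. The pore subunit genes Cacna1c and Cacna1a held 0 and 8 and 1 and 7. Without Cacna2d3 and under 8 other settings the calcium channel list stayed called, with ratios from 2.06 to 3.65. Potassium channels, 92 genes, lay close to the threshold at 1.52 and 1.55: Kcnd2 held 0 and 6 and Kcnj3 0 and 9, but Kcnma1 17 and 7. Sodium channels had only 10 and 27 regions, and without the genes of chromosome 2 they had 6 and 10 (1.72), or 6 and 2 at equal share (0.66). Glutamate receptors held 30 and 64 (2.20 and 1.91), led by the metabotropic receptor gene Grm8 with 1 and 11. Their 30.8% of members with more regions was near the 30.1% of all genes of at least 200 kb. GABA and glycine receptors held 6 and 20, too few to be called.

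Genes for axon guidance held 145 and 257 regions, with ratios of 1.83 and 1.93 over 68 genes. Dcc, a netrin receptor, held 1 and 17, the semaphorin gene Sema3e 3 and 15, and the semaphorin receptor gene Nrp1 5 and 15. Epha3, an ephrin receptor, held 4 and 1.

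Counted as 1 set of 482 genes, the 10 neural lists just described held 3.37% of gene-assigned regions at 2 weeks and 7.19% at 6 months, a ratio of 2.13 (2.17 at equal share). Grouping them was a choice made after their values were seen. Since 9 of the 10 lists were called higher, the values of this set restate those calls, within length classes too, and are given as a description. The 348 genes of the set under 200 kb had ratios of 1.87 and 1.85, where other genes under 200 kb had 0.884 and 0.881. The 134 longer ones had 2.30 and 2.37, where other genes of that length had 1.25 and 1.25. Of the set's 1386 regions at 6 months 74.9% were new, and 72.7% of these new regions overlapped a Foxa2 region, near the 68.4% of all new regions. Its 2-week regions were kept in 36.5% of cases, near the 32.0% of all 2-week regions in that view.

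Beside the 10 lists grouped as neural, Sox, FGF, phosphodiesterase and endothelial genes were called higher, and some of their members are neural factors too. The 18 Sox genes held 42 and 85 regions (2.09 and 2.42). More were held by 8 members, 44.4%, and fewer by none, against 8.35% and 21.3% of all genes. Sox2, a factor of stem cells and neural progenitors, held 2 and 10 (2 and 3 at equal share), Sox1, a neural progenitor factor, 1 and 9, and Sox6 10 and 19. FGF ligands held 16 and 30 regions over 20 genes. The member with the largest difference was Fgf12, and without it the list held 15 and 25. Fgf10, a growth factor from stroma in the developing prostate, held 2 and 5 (2 and 3 at equal share). Among phosphodiesterases and adenylyl cyclases, which degrade and make cyclic nucleotides, Pde10a held 2 and 12 and Pde4d 16 and 32. As many of their members held fewer regions as held more, 8 each (22.9%), and relative to genes of like length the list was not called (1.31 and 1.41). Endothelial genes had 12 and 29 regions, among them Erg with 0 and 4 and Cdh5 with 0 and 2, and kept their call in 5 of 9 settings.

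The lower lists were led by inflammatory signalling. Genes of the TNF family, with the Tnfaip genes that TNF induces, held 62 regions at 2 weeks and 27 at 6 months over 41 genes, ratios of 0.449 (0.286 to 0.706) and 0.382. Fewer regions were held by 15 members, 36.6%, and more by none, against 21.3% and 8.35% of all genes. These 15 were among 21 members with a 2-week region in the equal-length view, beside 4397 of 7934 such genes among all protein-coding genes. Tnfrsf21, a death receptor, held 15 and 3, and Tnfaip3, an inhibitor of NF-kappa B, 6 and 1. Of the TNF genes' 2-week regions 12.9% were kept, against 32.0% of all 2-week regions in the equal-length view. A low kept share follows in part from the fall by which the list was called, so it is no further support. NF-kappa B genes, 27 in number and sharing Tnfaip3 with the former list, held 50 and 23 (0.475 and 0.421). Of 19 members with a 2-week region in that view 15 held fewer, and 1 of all 27 held more. Nfkb1, a subunit of the factor, held 8 and 2, Nfkbiz 6 and 2, and the apoptosis inhibitor gene Birc3 3 and 0.

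Chemokines and their receptors held 37 and 21 regions (0.586 and 0.466). Cxcl1, which attracts neutrophils, and Cx3cl1 held 3 and 0 each, and Cxcl15 4 and 0, while the receptor gene Cxcr4 held 1 and 4. Of the 22 members with a 2-week region in the equal-length view 14 held fewer, against 4397 of 7934 such genes among all protein-coding genes. Interleukins and their receptors were not called (0.694 and 0.828), although Il1r1 held 6 and 0 and Il15 8 and 1. Cytochrome P450 genes, 98 in number, held 43 and 21 (0.504 and 0.507). Their counting intervals were 0.299 to 0.849 and, at equal share, 0.253 to 1.02, which includes 1. This list kept its call in 8 of 9 settings. Only 20 members had a 2-week region in the equal-length view, and 19 of these held fewer. The steroid hydroxylase gene Cyp7b1 held 5 and 1. Secretory pathway and unfolded protein response genes held 52 and 25 (0.496 and 0.621). Of their 34 members 22 had a 2-week region in the equal-length view. Fewer regions were held by 16 of these, such as the stress sensors Atf6 with 7 and 1 and Eif2ak3 with 3 and 0. This list kept its call in 5 of 9 settings and was not called relative to genes of like length (0.553 and 0.696). In the apoptosis list (0.665 and 0.506), which kept its call in 4 of 9 settings, the survival gene Bcl2 held 6 and 1 and Cflar 3 and 0.

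Luminal and androgen response genes did not pass the threshold as a list, with 88 and 64 regions and ratios of 0.75 and 0.82. Of the 21 members 19 had a 2-week region in the equal-length view. Fewer regions were held by 11 of these, near the 4397 of 7934 such genes among all protein-coding genes. More were held by 2 members, 9.52%, against 8.35% of all genes. Beside Zbtb16, the androgen-induced Fkbp5 held 7 and 1 and Sgk1 10 and 3. Tmprss2 held 10 and 8 and Cd24a 3 and 6. Basal epithelial genes had 24 and 23 regions. Nuclear receptors were not called either (0.809 and 0.772). Of their 27 members with a 2-week region in the equal-length view 14 held fewer, near the 4397 of 7934 over all genes. Of all 43 members 1 held more. Pparg, the adipogenic receptor, held 9 and 0, and Nr2f2 8 and 0. The thyroid hormone receptor gene Thrb held 12 and 3, while Rorb held 0 and 3. Tight junction genes, 47 in number, held 157 and 110 (0.723 and 0.683). Of their 30 members with a 2-week region in that view 21 held fewer, beside the same 4397 of 7934. Magi1 at 21 and 14 was among these. Magi2 at 9 and 18 (9 and 10 at equal share) was among the 3 that were higher.

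In several uncalled lists single members moved far in opposite directions. The Wnt list had 96 regions at either time, yet Tcf7l2, a transcription factor of the pathway, held 13 and 2 while its relative Lef1 held 0 and 4 and the ligand gene Wnt5a 0 and 4. Homeobox genes, with ratios of 1.48 in both views, lay just under the threshold: Meis2 held 4 and 13, whereas Zfhx3 held 18 and 7. Among forkhead genes other than Foxa1 and Foxa2, Foxn3 held 8 and 24 (7 and 8 at equal share) and Foxo3 7 and 2. In the Hedgehog list the receptor gene Ptch1 held 0 and 7, and Shh, the ligand, 5 and 2.

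The labelled tissue and other cell types were checked on a smaller set of defining markers in the full joined lists, of which the 6-month list is 52.9% as long as the 2-week list. Regions near luminal markers numbered 40 at 2 weeks and 17 at 6 months, with 7 and 5 of 7 markers marked; Hoxb13 went from 3 to 0, while Krt8 held 2 and 3. Neuroendocrine markers went from 15 to 37 regions, with 5 and 7 of 8 marked. Basal markers had 9 and 4 regions (3 and 1 of 5 marked), stromal markers 16 and 4 (5 and 3 of 7), immune markers 6 and 1 (3 and 1 of 6), endothelial markers 15 and 17 (4 and 4 of 4), and markers of urothelium and seminal vesicle 7 and 0 (3 and 0 of 6). The basal keratin genes Krt5 and Krt15, the fibroblast genes Pdgfra and Lum, Adgre1 and Csf1r of macrophages, and Upk1a, Upk2 and Svs2 were among the markers with no region at either time. In the equal-length view the numbers were 24 and 17 for luminal, 7 and 37 for neuroendocrine, 7 and 4 for basal, 10 and 4 for stromal, 3 and 1 for immune, 9 and 17 for endothelial, and 5 and 0 for urothelial and seminal vesicle markers. Most of these numbers are small. The part of cell composition in the differences of the gene lists was not tested.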

How the data were processed

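ChIP-seq peak lists of 2 Foxa1 libraries, and the Foxa2 list of 6 months, were used; the series has 6 libraries, and the inputs and the 2-week Foxa2 list were not analysed here. The submitters' processing notes name build mm10 and the tools MACS2 2.1.1, Trim Galore 0.5.0, bedtools 2.25.0, HOMER, Bowtie2, DiffBind 2.12.0 and deepTools 3.2.1, with settings not given in the sources used here. Each deposited list holds 1 library. For each peak the authors gave a fold enrichment (a ratio over local background) and a −log10 q, of at least that of a q-value of 0.05. Peaks off chromosomes 1 to 19 were left out, 778 and 241. Joining, matching, views, gene assignment and thresholds are as described with the results. Gene positions came from RefSeq (GRCm38.p6), with 20665 protein-coding genes. Python 3.11.15, numpy 2.4.6, pandas 2.3.3, scipy 1.17.1 and matplotlib 3.10.9 were used. On simulated data planted overlaps and assignments were recovered, and the kept count equalled that of bedtools.

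Named genes were the 10 with the largest excess and the 10 with the largest deficit by the smaller of both views' differences, 2 to 4 members per list in each direction, Foxa1 and Foxa2, the strongest regions per class, and the cell type markers. Members and lists were chosen with earlier results of these data known, so no list is independent support. 7 list members lie off chromosomes 1 to 19. Some items that these rules select are left out of the text.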

Additional observations from a re-analysis of the deposited data

How the results depend on the processing

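No paired analysis was possible because each group has 1 library, and for the same reason no replicate could be left out. The kept share of 2-week regions (23.3%) was 22.0% with peaks not joined, 27.1% with peaks under 5 kb apart joined, 9.24% with a reciprocal overlap of 50%, 15.5% with summits within 200 bp and 19.05% with a −log10 q of at least 5. Matched within equal lengths it was 32.0%, and within the strongest 50% 21.9%. The kept share of 6-month regions (43.4%) was 35.1, 47.9, 17.5 and 29.3% under the first 4 of these settings, and 32.0 and 40.5% under the last pair. Genes with at least 3 more regions (199) numbered 547 with peaks not joined, 400 with full lists as the equal share, and 85 both with the strongest 25% as the equal share and with the stricter q; 185, 156, 64 and 65 of them were among the 199. Genes with at least 3 fewer (834) numbered 1282 with peaks not joined, 470 with joining under 5 kb, 347 with the strongest 25%, 507 with gene bodies and 5 kb beyond, and 426 with the stricter q, of which 757, 444, 344, 474 and 332 were among the 834. The share of new regions in gene bodies (54.4%) was 55.9% with peaks not joined, 52.1% with joining under 5 kb and 52.5% with the stricter q, alternatives added after seeing the data. The causes of these shifts were not tested.

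Of the 19 called lists, between 12 and 18 kept their call under each of 9 settings. The lists that kept it under all 9 were Sox, calcium channels, cadherins, neural adhesion, axon guidance, phosphodiesterases, FGF ligands, vesicle and granule genes, neuroendocrine markers, TNF and NF-kappa B. Relative to genes of like length, added after seeing the data, potassium channels, glutamate receptors, phosphodiesterases, apoptosis and secretory genes were no longer called. Without chromosome 2 the sodium channels changed direction at equal share (log2 ratio −0.60), and sodium channels kept their call in 2 of 9 settings, apoptosis genes in 4, endothelial and secretory genes in 5 and potassium channels in 6. Absence from a list depends on depth and on the precipitation, which peak lists do not show, so a lost or new region was not listed rather than shown to be unbound.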
